A study of Mus musculus with 6 samples.

Results

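The genes described here are 10 genes of glycolysis and of the transcriptional response to low oxygen: Slc2a1, Hk2, Pfkl, Pfkp, Tpi1, Pgk1, Ldha, Pdk1, Bnip3 and Vegfa. They were listed by name, under a rule that uses no measured value, and all 10 had probe sets on the array. They held 20 of the 22626 probe sets and are 10 of 12393 genes with a probe set that names them alone. All 10 genes and 19 of their 20 probe sets passed the filter on low values (a log2 value of 4, here called the floor, reached on 3 arrays or more), which left 8382 genes for testing.

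Expression was measured on 6 Affymetrix arrays, 1 for each line of mouse embryo fibroblasts, primary cells grown from embryos for 2 passages in medium with serum. The 3 chromosomally unstable lines were 2 BubR1H/H lines, hypomorphic for Bub1b, a gene of the spindle checkpoint, and 1 CDC20AAA/AAA line, whose Cdc20 allele the labels also call hypomorphic. The 3 stable lines had wild-type alleles of the gene altered in their unstable partners: BubR1+/+ in 2 and CDC20+/+ in 1. Titles carry a number, 9515, 9938 or 10074, and each number joins 1 unstable and 1 stable line, called a pair below, and only pair 10074 holds CDC20 lines. The labels give no oxygen level for the cultures and do not say whether the lines of a pair were littermates. As the lines of a pair differ in genotype, they came from different embryos. Each p-value rests on how far the 6 lines spread, which may be in part technical. The CDC20 genotypes had 1 line each. All levels given are log2 values normalized with GCRMA, a method for Affymetrix arrays, and all differences are log2 differences, unstable minus stable.

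Glycolysis splits glucose into pyruvate in the cytosol. Cells make lactate from pyruvate when oxygen is short, and dividing cells often do so with oxygen present. When oxygen falls, the hypoxia-inducible factor HIF is no longer marked for destruction by its prolyl hydroxylases. It then binds short DNA elements with a core of ACGTG or GCGTG and raises glucose transport, glycolytic enzymes, lactate production, a brake on pyruvate entry into mitochondria, mitophagy and the growth of blood vessels. In fibroblasts the same genes also follow growth signals.

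The genes were chosen by name and not by promoter sequence. As HIF raises genes of this kind through its core letters, finding these letters in their promoters is not independent of that choice. RefSeq windows of 300 bases around the transcription start were found for all 10 genes, 13 windows in all (GRCm38.p6). ACGTG, searched on both strands, occurred in a window of 6 of the 10 genes, and in 19.6% of all 32851 windows of that length. GCGTG, also on both strands, occurred in 7 of the 10 genes and in 32.4% of all windows. Either core occurred in 9 of the 10 genes and in 10 of their 13 windows, beside 43.8% of all windows, and Tpi1 was the gene without one. Vegfa, on the minus strand, is counted through its window at chr17:46025114-46025413 alone. Its window at chr17:46032328-46032627, which lies upstream of that one, held no match. A gene is counted with a match in any of its windows, while the shares are of single windows. The windows printed here are those of the gene among the 10 with the largest difference below 0 (Ldha, at -0.29), of a gene higher in all 3 pairs (Bnip3, at 0.19) and of a gene whose pairs split by locus (Hk2). Each reads 5′ to 3′ on the strand of the gene, and capitals mark every match of ACGTG or GCGTG or its reverse complement. The sequence CACGTG is a match of ACGTG on both strands. The Bnip3 window is chr7:138909457-138909756 on the minus strand, the first of 2 Ldha windows chr7:46845554-46845853 on the plus strand and the Hk2 window chr6:82774405-82774704 on the minus strand.
Bnip3: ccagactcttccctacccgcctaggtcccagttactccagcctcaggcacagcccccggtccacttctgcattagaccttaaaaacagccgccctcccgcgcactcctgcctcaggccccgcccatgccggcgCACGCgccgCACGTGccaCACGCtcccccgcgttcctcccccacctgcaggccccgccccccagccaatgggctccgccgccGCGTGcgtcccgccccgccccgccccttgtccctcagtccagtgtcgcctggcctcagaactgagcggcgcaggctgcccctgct
Ldha: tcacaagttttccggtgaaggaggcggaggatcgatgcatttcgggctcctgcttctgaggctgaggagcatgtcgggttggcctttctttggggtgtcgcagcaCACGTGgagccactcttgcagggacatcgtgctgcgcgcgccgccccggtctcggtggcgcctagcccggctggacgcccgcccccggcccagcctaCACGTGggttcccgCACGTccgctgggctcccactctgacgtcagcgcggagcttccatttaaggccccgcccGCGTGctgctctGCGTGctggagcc
Hk2: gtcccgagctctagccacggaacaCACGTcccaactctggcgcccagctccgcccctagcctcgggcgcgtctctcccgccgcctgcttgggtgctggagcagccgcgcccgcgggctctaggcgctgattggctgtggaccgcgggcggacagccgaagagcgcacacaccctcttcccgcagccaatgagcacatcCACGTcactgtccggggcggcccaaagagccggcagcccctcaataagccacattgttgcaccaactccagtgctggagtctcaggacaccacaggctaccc
The Ldha window held 2 copies of CACGTG and the Bnip3 window 1, while the 2 matches in Hk2 were single-strand ones. With 9 of 10 genes holding a match, matches cannot be set against the differences. A match is a description of letters and not of a bound site.

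No difference of the 10 genes between unstable and stable lines passed the test, and their signs were mixed. Over the group means 5 of 10 were higher and 5 of 10 lower in unstable lines, beside 47.8% and 52.1% of the 8382 genes tested. None of the 10 passed limma's test at an adjusted p under 0.05 (adjusted p = 0.999 for each), where 0% of all genes passed. At an unadjusted p under 0.05 the count was 0 of 10 as well, beside 4.28% of all genes (1.35% higher and 2.93% lower). Blocked by pair number, 0 of 10 passed either threshold, beside 0% of all genes at the adjusted and 12.2% at the unadjusted one (5.24% higher and 6.92% lower). The number higher in the unstable line was 7 of 10 in pair 9515, 4 in pair 9938 and 6 in pair 10074, beside 50.2%, 49.5% and 45.2% of all genes. The groups of 3 overlapped in all 10 genes, while 3.54% of all genes were higher and 6.41% lower with no overlap. The median absolute difference of the 10 genes was 0.13, beside 0.105 over all genes. Their median signed difference was -0.017 on the log2 scale, beside -0.0087 over all genes, while pair by pair it was 0.085 (pair 9515), -0.16 (pair 9938) and 0.042 (pair 10074). Without the stable line of pair 10074, 3 of 10 rather than 5 were higher.

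**Figure D1:**
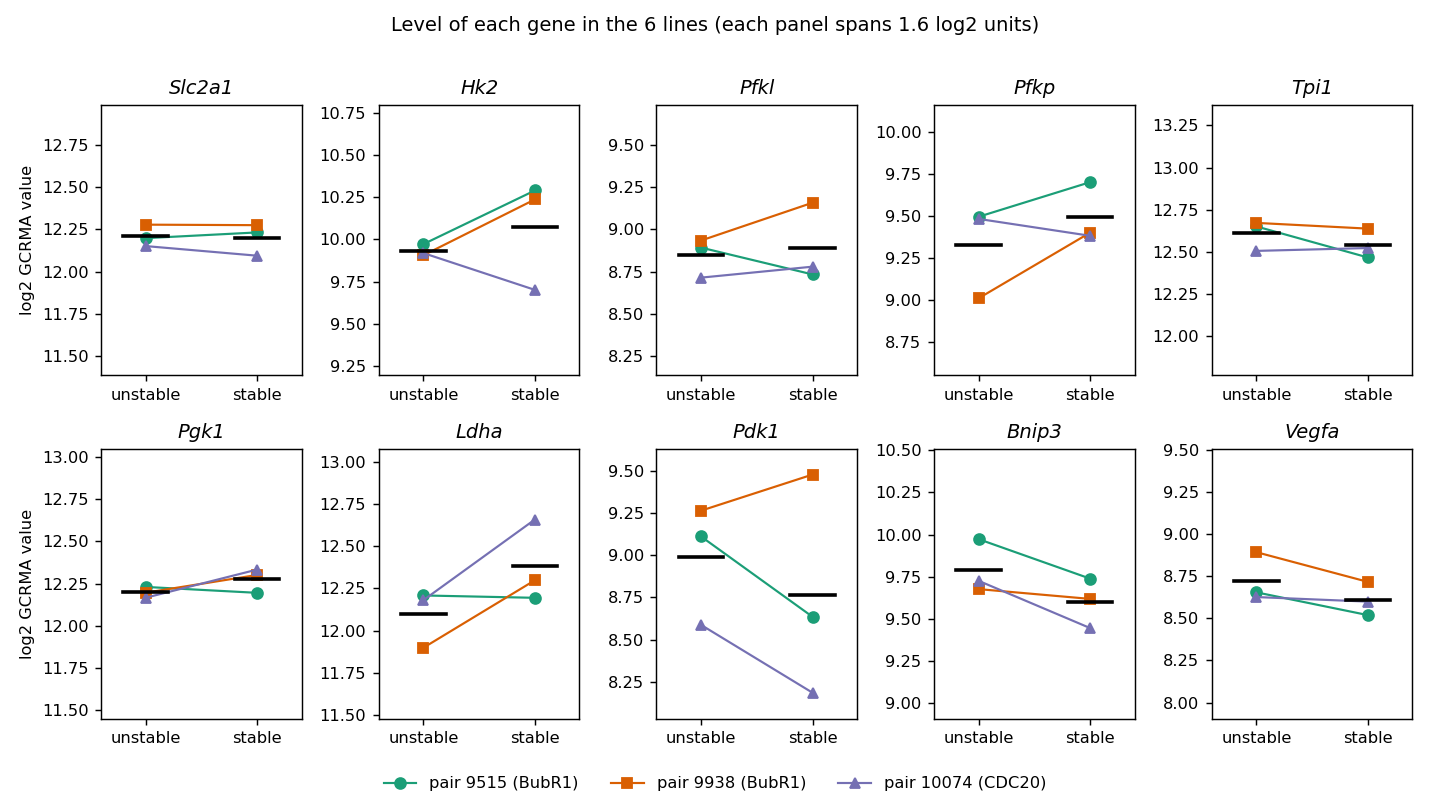
Level of each of the 10 genes as a log2 GCRMA value (y axis, 1.6 log2 units in every panel) in unstable and stable lines (x axis). Points are lines, coloured lines join the 2 lines of a pair and black bars are group means of 3 lines. The 3 unstable values overlap the 3 stable values in every panel.

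The altered genes, Bub1b and Cdc20, were measured as well. All 17 proliferation markers tested, described below, were also lower in all 3 pairs, and their part in the levels of these 2 genes was not tested. In the order of pairs 9515, 9938 and 10074, which every later list of 3 values keeps, Bub1b read 6.15, 6.43 and 7.00 in unstable lines, against 7.81, 8.51 and 7.61 in the stable lines. It was lower in each unstable line, by most in the BubR1 pairs. Even so, the Bub1b difference of -1.45 (SE 0.31) did not pass (adjusted p = 0.999 by limma). Cdc20 lay at 10.74, 10.34 and 10.03 in unstable lines, against 10.85, 11.15 and 10.83 in stable lines. Its pair differences were -0.103, -0.807 and -0.805, so its level does not set the CDC20 pair apart from BubR1 pair 9938. Of 12 fibroblast markers all were measured above the floor, with a mean level of 11.56 to 11.70 in unstable lines and 11.38 to 11.84 in stable lines. Of 6 erythroid markers on the array 0 passed the floor, and of 9 endothelial markers 1 did. Macrophage and leukocyte markers did pass, 19 of 20 of them. Their mean log2 level ran from 7.21 to 10.13 in unstable lines and from 7.41 to 9.95 in stable lines, lowest in both lines of pair 9515. In bulk RNA fewer cells of a type and less RNA per cell cannot be told apart. Both lines of pair 9938 had the female pattern of Xist, the RNA that coats the inactive X, with 10.70 in the unstable and 11.16 in the stable line, while the 4 lines of the other pairs read 2.24 to 2.94.

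Glucose entry was represented by a transporter and a kinase. Slc2a1 encodes GLUT1, the basal glucose transporter of fibroblasts. It lay at 12.20, 12.28 and 12.15 in unstable lines, against 12.23, 12.28 and 12.09 in stable lines. These values span 0.18 log2 units in all, and the pair differences were -0.034, 0.003 and 0.057. The difference of 0.0087 (SE 0.094) corresponds to 1.01-fold, with a 95% interval of 0.858 to 1.18-fold, and 95.2% of the genes tested had a larger absolute difference.

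Slc2a1 had 3 probe sets, and they did not give 1 picture. A second probe set read 11.74, 11.64 and 11.78 in unstable lines, against 11.80, 11.90 and 11.92 in stable lines. It was the 1 probe set of the 20 whose groups did not overlap in either direction, all unstable lines being lower, beside 6.26% of the 13589 probe sets tested that were lower in this way and 3.47% that were higher. Its difference of -0.15 (SE 0.094) did not pass (adjusted p = 0.999 by limma over all probe sets), and 0 of the 19 probe sets tested had an unadjusted p under 0.05, beside 4.17% of all. The third probe set read 10.65, 10.82 and 11.00 in unstable lines, against 10.64, 11.06 and 10.59 in stable lines, and was 0.41 higher in the unstable line of pair 10074, in which the second was 0.13 lower. No direction for Slc2a1 holds over its probe sets.

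Hk2 encodes hexokinase II, which traps glucose in the cell by phosphorylation. It lay at 9.97, 9.91 and 9.92 in unstable lines, against 10.29, 10.24 and 9.70 in stable lines. The unstable lines sat close together, with an SD of 0.035 (n = 3), while the stable lines had an SD of 0.33 (n = 3). Hk2 was thus lower in both BubR1H/H lines, by 0.32 and 0.33, and 0.22 higher in the CDC20AAA/AAA line, and the overall difference was -0.14 (SE 0.17).

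Hk2 was the 1 gene of the 10 with an unadjusted p under 0.05 when the loci were taken apart. Over the BubR1 lines alone it averaged 9.94 in H/H and 10.26 in +/+ lines. That difference of -0.32 (SE 0.097, 95% interval -0.60 to -0.044) had an unadjusted p = 0.033 by limma, as had 3.15% of all genes at the 0.05 threshold, and an adjusted p = 1, with 0% of genes past the adjusted threshold. The BubR1 difference minus the CDC20 difference was -0.54 (SE 0.17), with an unadjusted p = 0.037 by limma, a threshold that 1.59% of all genes met, and an adjusted p = 0.9995, again with 0% of genes past. Without any 1 of the BubR1 lines the BubR1 difference of Hk2 stayed between -0.36 and -0.29, at unadjusted p between 0.076 and 0.18 by limma. Blocked by pair number, the unadjusted p = 0.042 for the BubR1 difference and 0.046 for the difference between loci by limma, thresholds that 8.58% and 5.68% of all genes then met, and 0% passed after adjustment. The CDC20 side has 1 line a group and adds no spread of its own. The SE and p of the difference between loci thus rest on the spread of the BubR1 lines, and the CDC20 lines are assumed to vary like them. In both contrasts limma also draws the spread of Hk2 towards that of all genes tested. Hk1, the more widely expressed hexokinase, differed by 0.011 (SE 0.17), with pair differences of -0.40, 0.11 and 0.31.

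Phosphofructokinase commits sugar phosphate to glycolysis, and Pfkl and Pfkp encode its liver and platelet isozymes. Pfkl lay at 8.89, 8.93 and 8.71 in unstable lines, against 8.73, 9.16 and 8.78 in stable lines. Its difference was -0.043 (SE 0.14), and its second probe set gave 0.088 (SE 0.15), so its sign is not settled. Pfkp lay at 9.50, 9.01 and 9.48 in unstable lines, against 9.70, 9.40 and 9.38 in stable lines. Like Hk2 it was lower in both BubR1H/H lines, by 0.21 and 0.39, and 0.10 higher in the CDC20AAA/AAA line. Its BubR1 difference was -0.30 (SE 0.23) and its difference between the loci -0.40 (SE 0.40), with adjusted p = 1 and 0.9995 by limma. Its second probe set lay at 2.86 to 3.53, below the floor of 4 on every array, and was not tested. Opposite signs in the BubR1 and CDC20 pairs were seen in 3 of the 10 genes (Hk2, Pfkp and Tpi1), beside 19.2% of all genes. Pfkm, the muscle isozyme, differed by 0.074 (SE 0.17).

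Tpi1 and Pgk1 encode triose phosphate isomerase and phosphoglycerate kinase of lower glycolysis, and they varied least beside Slc2a1. Tpi1 lay at 12.65, 12.67 and 12.51 in unstable lines, against 12.47, 12.64 and 12.52 in stable lines. Its difference was 0.067 (SE 0.097), or 1.05-fold, and its other 2 probe sets gave 0.057 and -0.045. Pgk1 lay at 12.23, 12.20 and 12.17 in unstable lines, against 12.20, 12.30 and 12.33 in stable lines. Its difference was -0.079 (SE 0.086), or 0.947-fold, and its other 2 probe sets gave 0.0087 and 0.0013. Pgk1 lies on chromosome X, and its pair means of 12.21, 12.25 and 12.25 differed by 0.037. Of these pairs, 9938 had the female pattern of Xist.

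Ldha encodes the lactate dehydrogenase subunit that favours lactate formation, and its difference over all 6 lines was the largest of the 10 genes in either direction. It lay at 12.21, 11.90 and 12.18 in unstable lines, against 12.19, 12.30 and 12.66 in stable lines. The unstable line was lower by 0.40 in pair 9938 and by 0.48 in pair 10074, while pair 9515 differed by 0.014. The group means were 12.10 ± 0.17 (SD, n = 3) in unstable and 12.38 ± 0.24 (SD, n = 3) in stable lines, which overlap through pair 9515. The difference of -0.29 (SE 0.16) corresponds to 0.819-fold, with a 95% interval of 0.626 to 1.07-fold, and did not pass (adjusted p = 0.999, unadjusted p = 0.12 by limma). Blocked by pair number, the adjusted p = 0.458. The difference of Ldha was -0.15 without the stable line of pair 10074, where that of Hk2 was -0.33, and -0.44 without pair 9515. Without the stable line of pair 9938 it was -0.33, where that of Pdk1 was 0.58. Without the unstable line of pair 9938 it was -0.19, where that of Bnip3 was 0.25. Without the unstable line of pair 10074 it was -0.33, where that of Pdk1 was 0.42. Without pair 9938 it was -0.23 (Pdk1 0.44), and without pair 10074 -0.19 (Hk2 -0.32). The place of Ldha as the largest thus does not hold when any line of pairs 9938 and 10074, or either of these pairs, is left out. Proliferation markers were also lower: 17 of 17 tested were so in all 3 pairs, beside 19.3% of all genes, with pair medians of -0.26, -0.63 and -0.75 and 0 past the adjusted test by limma. Of the 17, 6 were lower at an unadjusted p under 0.05, beside 2.93% of all genes, and 16 when blocked by pair number, beside 6.92%, and 12 had groups that did not overlap, beside 6.41%. Their mean level was 9.33 to 9.89 in unstable and 10.03 to 10.55 in stable lines. All 19 macrophage and leukocyte markers tested were lower over the group means, beside 52.1% of all genes. Only 4 of the 19 were lower in all 3 pairs, beside 19.3%, and the pair medians were -0.22, 0.18 and -1.19. The part of either in the values of Ldha was not tested.

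Ldhb encodes the other main subunit, which favours pyruvate formation. It lay at 9.97, 9.44 and 9.89 in unstable lines, against 9.73, 8.53 and 9.28 in stable lines. It was higher in the unstable line of every pair, by 0.24, 0.90 and 0.62, and its 4 probe sets gave differences of 0.59, 0.64, 0.59 and 0.76. The difference of 0.59 (SE 0.32) did not pass (adjusted p = 0.999 by limma). Ldhb is outside the 10 genes, and whether its difference departs from that of Ldha was not tested.

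Pdk1 encodes the pyruvate dehydrogenase kinase that HIF raises and that keeps pyruvate out of the mitochondrial cycle. It varied most of the 10 genes, from 8.19 to 9.48. It lay at 9.11, 9.26 and 8.59 in unstable lines, against 8.64, 9.48 and 8.19 in stable lines. Pair 9938 was high and pair 10074 low in both groups, and the pair means of 8.87, 9.37 and 8.39 span 0.985 log2 units, more than the largest pair difference of 0.476. The pair means spread wider than the largest pair difference in 5 of the 10 genes and in 49.2% of all genes.

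The unstable line was 0.48 and 0.40 higher in pairs 9515 and 10074 and 0.21 lower in pair 9938, for a Pdk1 difference of 0.22 (SE 0.36). Its 95% interval without the block, 0.636 to 2.14-fold, was the widest of the 10 genes. This SE and interval include the spread between pairs. For Pdk1 the blocked fit gave an SE of 0.16 and a 95% interval of -0.19 to 0.63 on the log2 scale. The difference was -0.069 without the stable line of pair 10074 and -0.029 by the second probe set, which read 8.08, 8.23 and 7.88 in unstable lines, against 7.69, 8.69 and 7.90 in stable lines. Pdk4, a kinase of the same family, differed by 0.54 (SE 0.59) with pair differences of 0.19, 0.44 and 0.99. Pdk2 differed by 0.40 (SE 0.23) and Pdk3 by -0.035 (SE 0.12). These SEs too are from the fit without the block. When blocked, limma gave unadjusted p = 0.025 for Pdk4, 0.083 for Pdk2 and 0.74 for Pdk3. The adjusted p-values of that fit were 0.346, 0.474 and 0.913.

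Bnip3 and Vegfa were the 2 of 10 that were higher in the unstable line of all 3 pairs, beside 16.9% of all genes. In the other direction 0 of 10 were lower in all 3, beside 19.3%. Bnip3 encodes a mitochondrial outer membrane protein that recruits the autophagy machinery in hypoxia. It lay at 9.97, 9.68 and 9.73 in unstable lines, against 9.74, 9.62 and 9.45 in stable lines. The unstable line of pair 9938 lay below the stable line of pair 9515, so the groups overlapped. The difference of 0.19 (SE 0.13) corresponds to 1.14-fold, with a 95% interval of 0.920 to 1.42-fold (adjusted p = 0.999 by limma, and adjusted p = 0.478 with the pair number as a block).

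Vegfa encodes the main growth factor of blood vessels. It lay at 8.65, 8.89 and 8.63 in unstable lines, against 8.52, 8.72 and 8.60 in stable lines, a difference of 0.11 (SE 0.11) or 1.08-fold. Its second probe set lay near the floor, at 4.56, 4.61 and 4.58 in unstable lines, against 4.32, 4.80 and 4.62 in stable lines, with a difference of 0.0047. The direction of Vegfa therefore rests on 1 probe set.

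**Figure D2:**
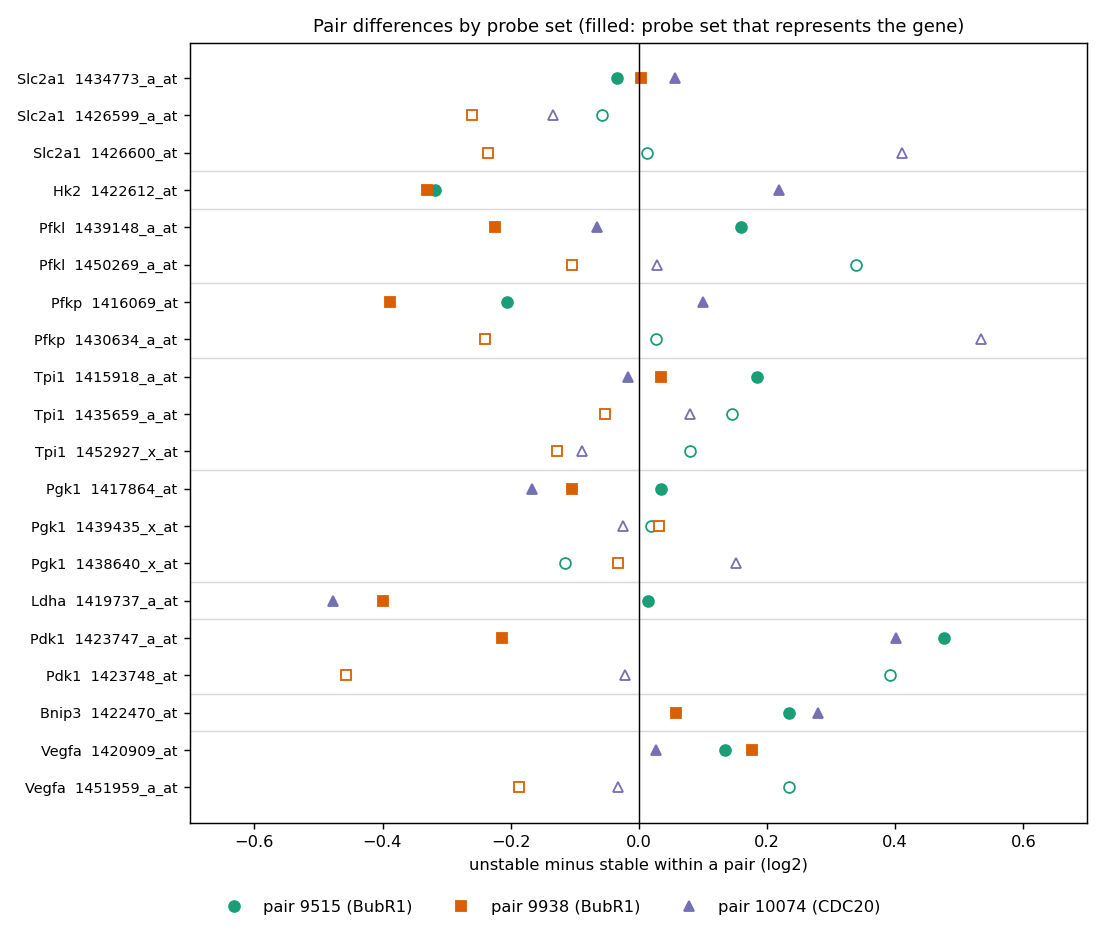
Difference of the unstable minus the stable line within each pair (x axis, log2) for the 20 probe sets of the 10 genes (y axis). Filled symbols are the probe set that represents the gene. Of the 7 genes with more than 1 probe set, 6 have probe sets of both signs over the group means. The same share over all genes was not computed.

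The probe sets of a gene disagreed in sign over the group means in 6 of the 7 genes that had more than 1. Pfkp is counted among them through its probe set below the floor. Over all 20 probe sets 12 were higher and 8 lower in unstable lines, and 2 were higher and 1 lower in all 3 pairs, beside 15.8% and 18.3% of the probe sets tested. Probe sets of 1 gene read the same RNA and are not replicates.

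The intervals say how large a difference these 6 arrays leave room for. For 8 of the 10 genes the 95% interval of the difference lay within 1.5-fold either way, and for Ldha and Pdk1 it did not. The blocked intervals gave 8 as well. The unblocked interval of Pfkp reached -0.584 on the log2 scale, where 1.5-fold is 0.585, so it lay only just inside. The share of all genes with such intervals was not computed. All 30 pair differences of the 10 genes were under 1.5-fold, which held for all 3 pairs in 84.7% of all genes. A p that misses the threshold does not show that the lines have equal levels.

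**Figure D3:**
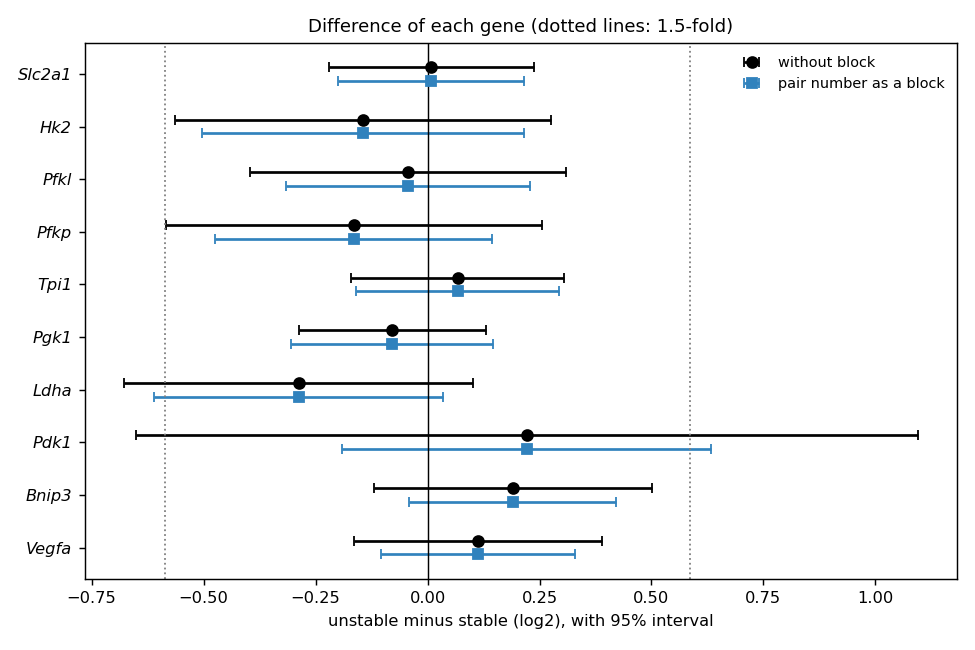
Unstable minus stable difference of the 10 genes (x axis, log2) with its 95% interval from limma, without a block (black circles) and with the pair number as a block (blue squares). Dotted lines mark 1.5-fold. All 10 unblocked intervals include 0, and that of Pdk1 is the widest.

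The upstream regulators of the response were measured in part. Hif1a, the oxygen-regulated HIF subunit, lay at 11.74, 11.87 and 11.52 in unstable lines, against 11.76, 11.84 and 11.37 in stable lines, a difference of 0.053 (SE 0.16). Of its other 2 probe sets above the floor, 1 gave 0.20 and was higher in all 3 pairs, by 0.22, 0.19 and 0.18, and 1 gave 0.16, with pair differences of 0.70, -0.20 and -0.018. Epas1, which encodes the second such subunit, and Vhl, whose product marks both for destruction, lay under the floor of 4 on every array. Of 7 regulators tested 2 were higher and 5 lower over the group means, with a median of -0.013, and 0 passed the adjusted test. The prolyl hydroxylase gene Egln3, itself raised by HIF, was the 1 regulator higher in all 3 pairs. It lay at 6.19, 6.32 and 6.18 in unstable lines, against 5.92, 6.13 and 5.81 in stable lines, with no overlap, beside 3.54% of all genes with groups that did not overlap and were higher. Its difference was 0.28 (SE 0.11, unadjusted p = 0.052 by limma), and its second probe set, near the floor, gave 0.19. Egln1, the main hydroxylase, differed by -0.012 (SE 0.14) and Arnt, the partner subunit of HIF, by -0.13 (SE 0.12). Egln2, a further hydroxylase gene, differed by -0.034 (SE 0.087).

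Other HIF targets had a median of 0.058. Of 35 tested, 21 were higher and 14 lower, beside 47.8% and 52.1% of all genes, and 12 were higher and 5 lower in all 3 pairs, beside 16.9% and 19.3%. None passed the adjusted test by limma. At an unadjusted p under 0.05, 3 were higher and 0 lower, beside 1.35% and 2.93% of all genes, and when blocked by pair number 6 were higher and 1 lower, beside 5.24% and 6.92%. The 3 called without the block were the liver glycogen phosphorylase gene Pygl, at 0.47 (SE 0.12), the nuclear receptor gene Rora, at 0.48 (SE 0.15), and the cyclin G2 gene Ccng2, at 0.53 (SE 0.19). Pygl lay at 6.47, 6.46 and 6.35 in unstable lines, against 5.81, 5.88 and 6.18 in stable lines, with no overlap. Angptl4, a secreted inhibitor of lipoprotein lipase, differed by 0.55 (SE 0.25), with pair differences of 0.27, 0.89 and 0.50. Proliferation markers were lower in the same unstable lines, and their part in these values was not tested. Car9, the carbonic anhydrase that is a standard marker of hypoxia, lay under the floor on every array, at 3.18 to 3.69 in unstable and 2.73 to 3.36 in stable lines.

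The remaining enzymes of glycolysis and their transporters had a median of -0.019. Of 17 tested 8 were higher and 9 lower, 3 were higher and 2 lower in all 3 pairs, beside 16.9% and 19.3% of all genes, and 0 passed the adjusted test by limma. At an unadjusted p under 0.05, 0 were higher and 1 lower, beside 1.35% and 2.93% of all genes, and when blocked by pair number 3 were higher (Ldhb, Eno2 and Slc2a3) and 1 lower, beside 5.24% and 6.92%. The 1 lower in both fits was the monocarboxylate transporter gene Slc16a7, at -0.48 (SE 0.20), which lay at 5.98, 5.88 and 5.41 in unstable lines, against 6.50, 6.05 and 6.16 in stable lines. The neuronal enolase gene Eno2 differed by 0.35 (SE 0.22) and the muscle enolase gene Eno3 by 0.27 (SE 0.21). Slc2a3, the gene of the high-affinity glucose transporter GLUT3, differed by 0.45 (SE 0.41). Its unstable line was higher in every pair, by 0.24, 0.27 and 0.85, but its other probe set above the floor was 0.24 lower in pair 9515.

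The genes around pyruvate and the pentose phosphate branch had medians near 0. Of 8 genes of the pyruvate dehydrogenase complex and its kinases 4 were higher and 4 lower, with a median of 0.005. In all 3 pairs 4 were higher and 2 lower, beside 16.9% and 19.3% of all genes. With no overlap of the groups 1 was higher and 1 lower, beside 3.54% and 6.41%. Dlat, its acetyltransferase subunit, differed by -0.20 (SE 0.10) and was lower in all 3 pairs, and Pdha1, its catalytic subunit, by -0.081 (SE 0.099). Of 7 pentose phosphate genes 0 were higher and 1 was lower in all 3 pairs, and that 1, Rpia, had no overlap of the groups. Over the group means 1 of the 7 was higher and 6 lower, with a median of -0.061. Among them were Rpia at -0.21 (SE 0.12), H6pd at -0.087 (SE 0.11), Pgd at -0.070 (SE 0.086) and Tkt at -0.061 (SE 0.13), with 0 past the adjusted test in either list.

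Among 8 other VEGF ligands and receptors, 7 had a higher mean in unstable lines, beside 47.8% of all genes, and 4 were higher in each pair, beside 16.9%. The receptor gene Flt1, named here after its values were seen, was lower in all 3 pairs, as were 19.3% of all genes, at -0.24 (SE 0.26). Their median was 0.16, and pair by pair it was 0.014, 0.036 and 0.34. Vegfc, the lymphatic growth factor gene, lay at 7.66, 8.26 and 8.12 in unstable lines, against 7.33, 7.78 and 7.79 in stable lines, a difference of 0.38 (SE 0.21). The groups of Vegfc overlapped. Pgf differed by 0.33 (SE 0.26), the co-receptor gene Nrp2 by 0.21 (SE 0.16) and Vegfb by 0.094 (SE 0.085).

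Of 14 BCL2 family and mitophagy genes 11 were higher over the group means, beside 47.8% of all genes, 3 were higher in all 3 pairs, beside 16.9%, and 1, Opa1, was lower in all 3, beside 19.3%. Their median was 0.12. The autophagy gene Gabarapl1 differed by 0.22 (SE 0.12), the mitophagy kinase gene Pink1 by 0.41 (SE 0.24), the mitophagy receptor gene Fundc1 by 0.13 (SE 0.093) and the mitochondrial fusion gene Opa1 by -0.22 (SE 0.17). In both lists 0 genes passed the adjusted test by limma, and without the block 0 had an unadjusted p under 0.05. Blocked by pair number, Vegfc and Gabarapl1 were higher and Flt1 lower at an unadjusted p under 0.05, beside 5.24% higher and 6.92% lower of all genes, and 0 passed after adjustment.

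**Figure D4:**
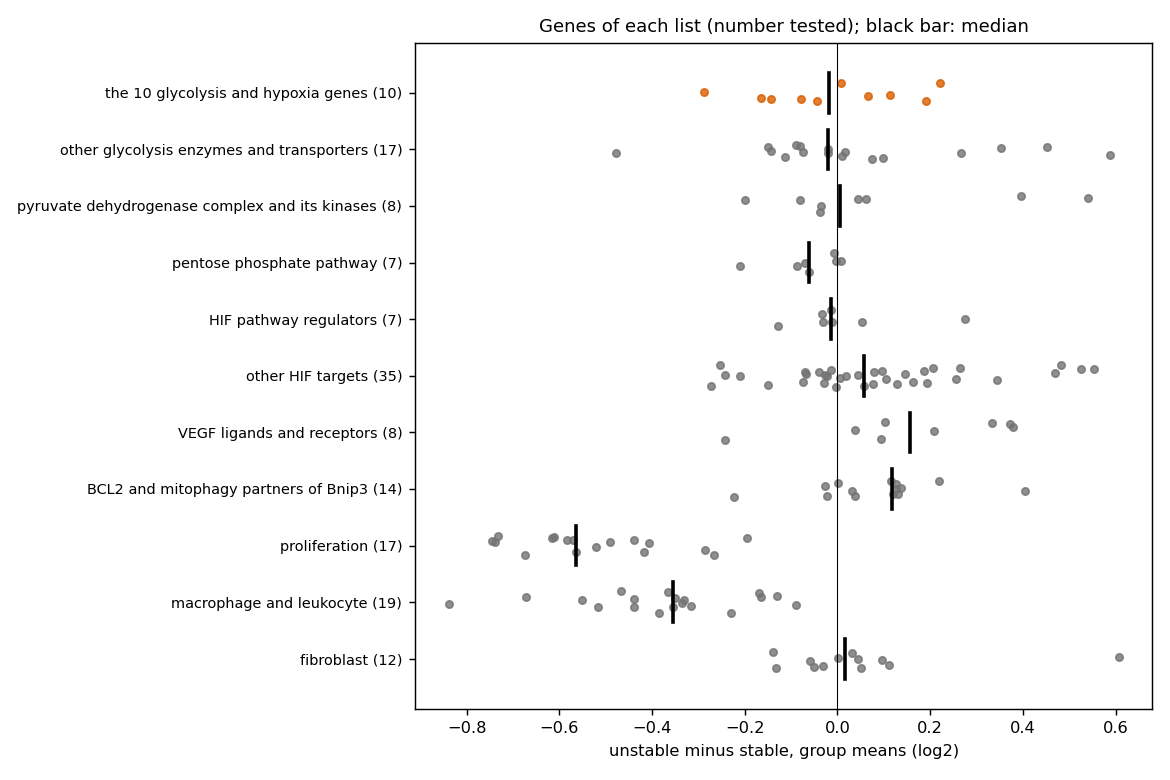
Unstable minus stable difference over group means (x axis, log2) of each tested gene (points) in the 10 glycolysis and hypoxia genes, related lists and marker lists (y axis, with the number tested). Black bars are medians. The 10 genes lie between -0.29 and 0.22 around a median of -0.017, and the proliferation markers around -0.56.

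The profiles most like those of the 3 most variable genes were sought among 8372 other genes, as the smallest root mean square distance between log2 values centred over the 6 arrays. Nearest to Pdk1 were Ppcdc at 0.14, Dkk2 at 0.15 and Lnx1 at 0.15 log2 units. Nearest to Ldha were Gpaa1 at 0.048, Eif1ax at 0.058 and Sars at 0.061. Nearest to Pfkp were Tead4 at 0.041, Tcaf2 at 0.051 and Ankrd28 at 0.053, with Tead4 close to the floor at 4.15 to 4.82. These distances cover 6 arrays that share their normalization, and they grow with a gene's own range, so they are not compared between the 3 genes.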

How the data were processed

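Values were taken from 1 table of 22626 probe sets by 6 arrays. The deposited values are log2 values that the authors made with R 2.15.3 and GCRMA 2.28.0, per the submitters' processing notes; GCRMA corrects background, normalizes arrays to each other and summarizes probe sets, so overall brightness differences are removed. Array medians were 6.16 to 6.20. The number of arrays limits the precision, and scanner files were not used here.

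Symbols came from the platform annotation of GEO: 20380 probe sets had 1 symbol, 691 several and 1555 were not listed. A gene was represented by its probe set with the highest mean, and 8382 genes that reached the floor, a log2 value of 4, on 3 or more of the arrays were tested. Differences are unstable minus stable, fitted without a block with limma 3.58.1 in R 4.3.3 (two-sided, Benjamini-Hochberg over all genes), and the BubR1 contrast and the difference between loci were contrasts of the 4 genotypes. An exact permutation test of 3 against 3 has a smallest p of 0.1 and was not used. Every probe set was also tested separately. The fits were tested on simulated data.

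Deviations from the group means correlated at 0.812, 0.681 and 0.602 across genes within pairs 9515, 9938 and 10074, and at -0.673 to 0.153 between other lines, so the title numbers were taken to pair the lines. The 10 genes and the related lists were chosen with earlier results of these data known. The lists and tests were then kept as written, but the alternatives were added to. Fits that leave out a pair and also use the block were added, for each pair, after the data were seen. Named genes are the 10, the up to 4 genes of each related list with the smallest p, fixed isozymes and regulators, and the nearest profiles. Flt1 was named in addition, after its values were seen. Marker lists are given as counts and levels. Alternatives were other filters, the mean of probe sets, each probe set, renormalization, other priors, array weights, the block and leaving out each line or pair.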

Additional observations from a re-analysis of the deposited data

How the results depend on the processing

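No alternative changed a call at the adjusted threshold: in the unstable against stable comparison 0 genes passed under each of the 21 alternatives, as did 0 in the BubR1 comparison and in the difference between loci, and the lowest adjusted p of any of the 10 genes was 0.331 by limma (without pair 9515, with the block, an alternative chosen after seeing the data). With the pair number as a replicate block, 0 genes passed and 1019 rather than 359 had an unadjusted p under 0.05, none of them among the 10, and it also changed, at the unadjusted threshold, the counts of the related lists given in the report and those of the HIF regulators (1 higher, Egln3) and of the pyruvate dehydrogenase list (1 higher, Pdk4), each with 0 without the block. Without the block, leaving out pair 9938 left 144 such genes. Leaving out single lines or pairs gave 3 to 6 of the 10 genes higher, Slc2a1 at -0.045 to 0.046, Pfkl at -0.14 to 0.091 and Pdk1 at -0.069 to 0.58. The other genes of the 10 kept their sign but moved in size, Hk2 at -0.33 to -0.037, Pfkp at -0.30 to -0.0058, Ldha at -0.44 to -0.15, Pgk1 at -0.14 to -0.035, Tpi1 at 0.0085 to 0.12, Bnip3 at 0.10 to 0.26 and Vegfa at 0.029 to 0.17. With the block and without pair 10074 Slc2a1 was at -0.016, and with the block and without pair 9938 Pfkl was at 0.047. With all probe sets averaged per gene Slc2a1 was at -0.027 and Pfkl at 0.022, and in the BubR1 lines Pfkl was at 0.043 and, for the difference between loci, Pgk1 at -0.015. By other probe sets Slc2a1 was at -0.15, Pfkl at 0.088, Tpi1 at -0.045, Pgk1 at 0.0087 and 0.0013, and Pdk1 at -0.029. In the BubR1 lines, leaving out 1 line gave Slc2a1 -0.056 to 0.025, Pfkl -0.25 to 0.18, Pgk1 -0.088 to 0.018, Pdk1 -0.29 to 0.55 and Bnip3 -0.002 to 0.29. For the difference between loci it gave Pfkl -0.18 to 0.25, Pdk1 -0.69 to 0.15 and Bnip3 -0.28 to 0.014. The cause of these sign changes was not tested beyond the line or probe set left out. The 6 arrays limit what can be told: the 95% intervals of Ldha and Pdk1 reach past 1.5-fold, and that of Pfkp ends only just inside it.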
